A study of Arabidopsis thaliana with 6 samples.

Results

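The subject here is a set of transcripts that gave a clear signal in roots of Arabidopsis thaliana, the thale cress, almost none in rosette leaves, and a root signal that stayed within a factor of 2 over the lead treatments. Members are probe sets that name exactly 1 gene, had a signal of at least 100 on all 3 root arrays and under 16 on all 3 leaf arrays, and had a highest root signal under 2 times the lowest. Class III peroxidases, beta-glucosidases (BGLU), UDP-glycosyltransferases (UGT), serine carboxypeptidase-like proteins (SCPL), chitinases, expansins, xyloglucan endotransglucosylases (XTH), cytochromes P450 (CYP) and WRKY factors were left out. That gave 15 of the 3592 genes named on the array, read by 16 of its 8297 probe sets. The members were chosen by the signals on all 6 arrays, so the contrast of root with leaf and the changes over lead in roots are given below as descriptions without a test.

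The groups were roots with 25 ppm lead, roots with 50 ppm lead and control roots, and rosette leaves of the same treatments, each on 1 array, 6 arrays in all. Plants of accession Col-4 grew hydroponically in a cycle of 10 h light at 22 °C and 14 h darkness at 18 °C, at 70% humidity, and were at growth stage 6.00. Lead came as Pb(NO3)2 in 2 additions a week apart, after the rosette was complete and up to the first flower bud, and the control labels name no treatment. The number of plants behind an RNA sample is not given in the labels, and with 1 array per group no value here has a replicate error.

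Roots take up water and ions through the epidermis and meet soil microbes there, and their cells secrete many proteins into the wall and apoplast. Lectins bind sugar chains, CAP-superfamily proteins include the pathogenesis-related PR-1 proteins, and small lipid transfer proteins carry lipids outside the cell. Lead enters plants mainly through the root, where much of it is held in the cell wall. Of the member genes, 2 carry a symbol in the RefSeq gene table and 13 only a locus number. Family names below for those 13 are general background on the loci and are not part of the files.

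The organ labels were checked on photosynthesis genes. Their 9 named probe sets (5 genes) had signals between 3.3 and 87.6 on the root arrays and between 258.2 and 6483.3 on the leaf arrays, so the organs did not overlap on the summed set or on any single probe set. No named probe set stood for the listed root hair or root nutrient uptake genes, so root tissue was not checked on these. The endodermis list had 1 named probe set, that of AT2G23540, with root signals of 91.7 in control, 229.2 at 25 ppm and 503.6 at 50 ppm. Its leaf signals were 3.2, 11.2 and 2.9 in the same order. The scan background of roots at 50 ppm averaged 192.65, while those of the other 5 scans averaged 69.03 to 97.80, and its part in the values below was not tested. In whole organs, fewer cells of a type and less RNA per cell cannot be told apart.

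The lectins among the members were 3 jacalin-related genes with ratios under 1.5 and 1 less steady gene. JAL34, a jacalin-related lectin, had root signals of 1010.7 in control, 805.1 at 25 ppm and 873.3 at 50 ppm lead, and leaf signals of 1.0, 1.0 and 13.7 in the same order. Its highest root signal was 1.26 times the lowest, and the leaf value at 50 ppm stood above the other leaf values but under 16. JAL31, also a jacalin-related lectin, had root signals of 319.3, 332.9 and 451.5 over the same doses, with leaf signals of 1.6, 4.6 and 7.3. AT2G25980, of the same family, had root signals of 256.7, 358.1 and 316.4 and leaf signals of 1.3, 6.8 and 0.8. The 3 jacalin-related members thus differed in which root array was highest, which was control for JAL34, 50 ppm for JAL31 and 25 ppm for AT2G25980. AT1G78860, of the mannose-binding lectin family, had root signals of 796.5, 422.7 and 644.6, lowest at 25 ppm, and leaf signals of 3.0, 3.5 and 2.1. Its probe set has the ending _i_at rather than plain _at, and whether it reads this gene alone was not tested.

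Secreted and wall proteins held both the steadiest and the least steady member. AT4G33720, a CAP-superfamily protein related to PR-1, was read by 2 probe sets that both met the rule. The set ending in _s_at had root signals of 1436.0 in control, 1528.9 at 25 ppm and 1648.4 at 50 ppm, and leaf signals of 4.6, 1.2 and 0.7. The set ending in _r_at had root signals of 1426.7, 1025.1 and 930.5 and leaf signals of 0.8, 0.7 and 1.2. Over the doses the _s_at signals ran upward and the _r_at signals downward. The log2 change from control to 50 ppm was 0.20 on the _s_at set and -0.62 on the _r_at set, a gap of 0.82 that no rescaling of whole arrays by a factor can alter. In Affymetrix names the ending _s_at marks probes shared by several transcripts and _r_at a set in which some probe selection rules were dropped, so neither set is certain to read this gene alone.

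AT5G46900, of the lipid transfer and 2S albumin superfamily, had root signals of 1784.1 in control, 1276.8 at 25 ppm and 893.1 at 50 ppm, and leaf signals of 10.5, 14.1 and 4.6. Its ratio of 1.998 lay just under the limit, with each dose below the one before. AT2G41800, a DUF642 cell wall protein, had root signals of 131.1, 196.2 and 204.0 and leaf signals of 2.9, 1.9 and 1.7, so both lead arrays lay above control. AT2G47550, of the pectin methylesterase family, whose enzymes trim methyl groups from wall pectin, had root signals of 108.8, 103.4 and 196.6 and leaf signals of 3.6, 8.4 and 5.4. It was near 100 in control and 25 ppm roots and 1.81 times the control at 50 ppm. The 50 ppm root array, the one with the high background, was the highest for 6 member probe sets in all.

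**Figure D1:**
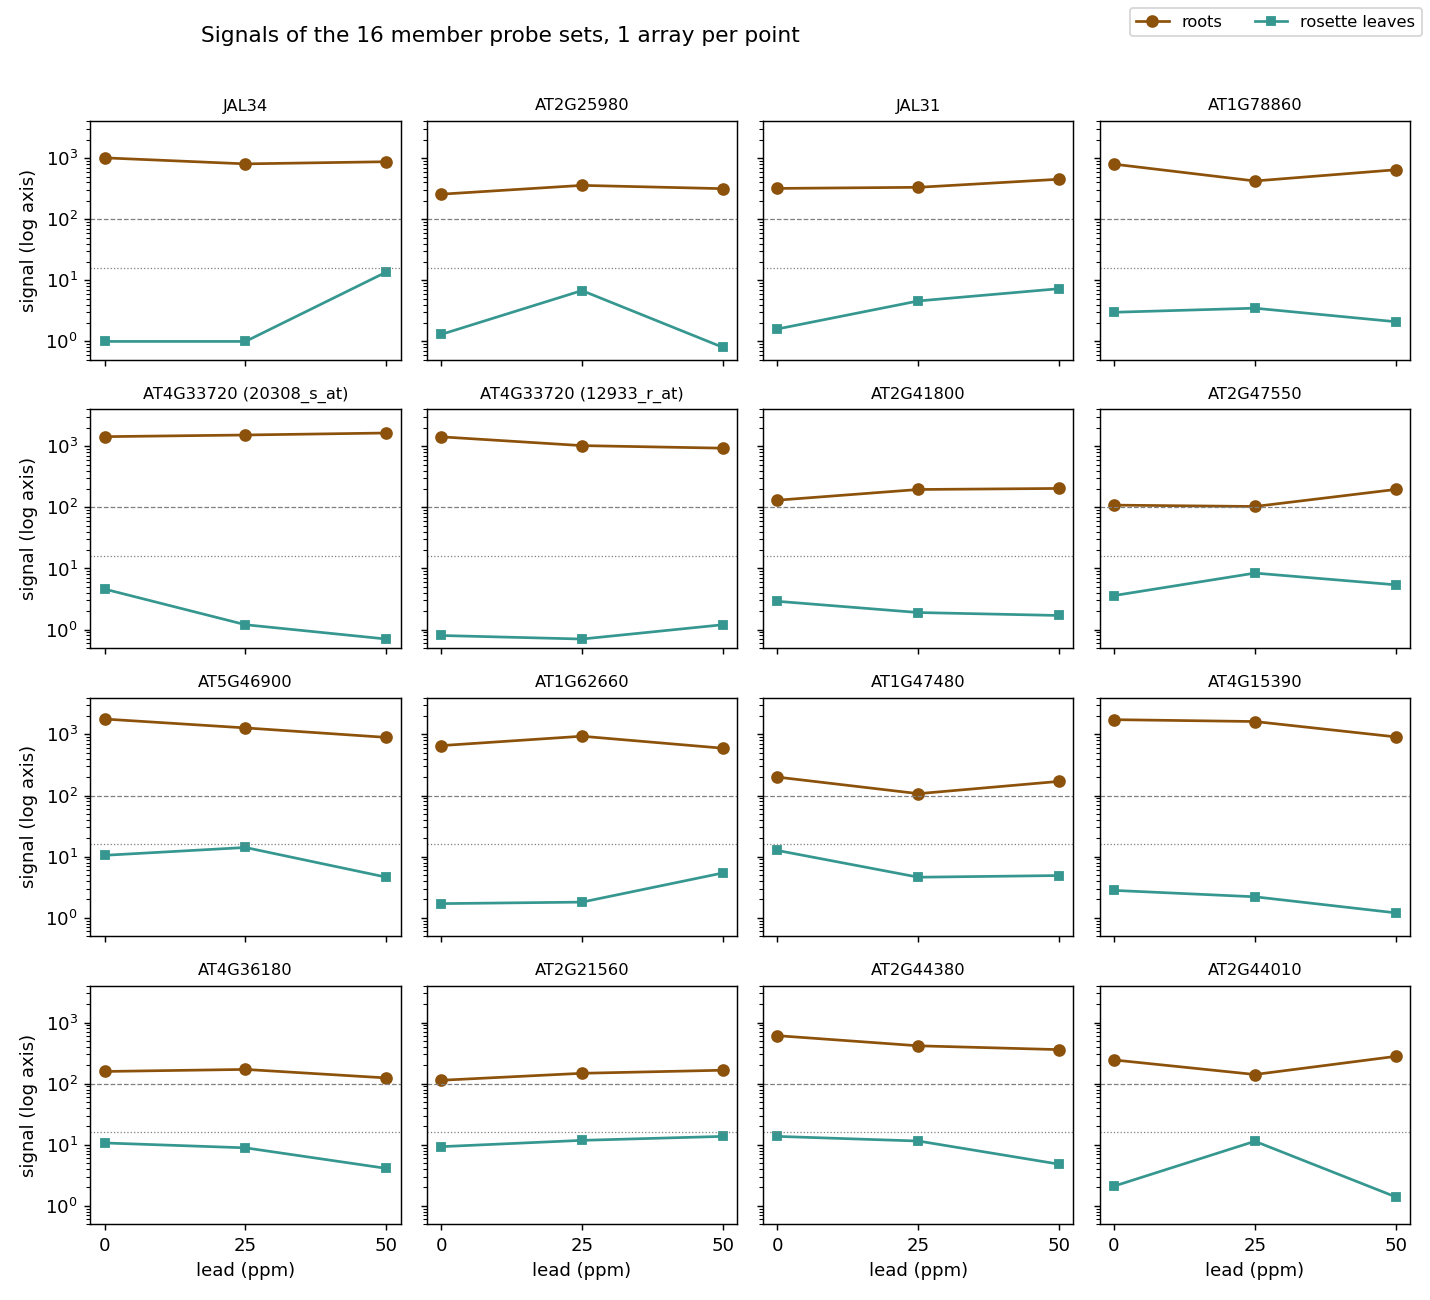
Signals (log axis) of each member probe set in roots (brown circles) and rosette leaves (green squares) against lead in ppm, 1 array per point and no error bars because no group had a replicate; the dashed line is the root minimum of 100 and the dotted line the leaf limit of 16. Root signals lie between 103.4 and 1784.1 and leaf signals between 0.7 and 14.1.

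The metabolic enzymes were 3 genes with unlike courses. AT4G15390, of the BAHD acyltransferase family, which moves acyl groups onto alcohols and amines, had root signals of 1743.6 in control, 1624.9 at 25 ppm and 910.1 at 50 ppm, and leaf signals of 2.8, 2.2 and 1.2. Control and 25 ppm roots were close, and 50 ppm roots were lower. AT1G62660, of the acid invertase family that splits sucrose, had root signals of 655.3, 933.5 and 594.1 and leaf signals of 1.7, 1.8 and 5.4, highest in roots at 25 ppm. Its probe set also carries the ending _s_at. AT1G47480, of the carboxylesterase family, had root signals of 200, 107.2 and 170.4 and leaf signals of 12.6, 4.6 and 4.9, lowest in roots at 25 ppm.

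The other 4 genes were a receptor, a domain family and loci without a family name here. AT4G36180, a leucine-rich repeat receptor kinase family member, had root signals of 158.2, 170.9 and 124.0 and leaf signals of 10.7, 8.9 and 4.1. AT2G44380, of the cysteine and histidine-rich DC1 domain family, had root signals of 609.6, 416.1 and 360.3, highest in control. Its leaf signals were 13.7, 11.5 and 4.8. AT2G21560 had root signals of 113.5, 147.7 and 165.8 and leaf signals of 9.3, 11.8 and 13.7, and AT2G44010 had root signals of 244.1, 141.1 and 279.6 and leaf signals of 2.1, 11.4 and 1.4. AT2G21560 ran upward with dose in roots, whereas AT2G44010 was lowest at 25 ppm and spanned a ratio of 1.98.

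Across the members the root and leaf signals did not overlap, which the rule fixes. Of all 1655 probe sets with a root signal of at least 100 on every root array, 6.4% were under 16 on all leaf arrays. With 16 taken as the leaf value, the geometric mean of the root signals was at least 8.14-fold (AT2G47550) to at least 96.0-fold (AT4G33720, _s_at set) higher than in leaves. Of all non-control probe sets 37.5% lay under 16 on all 3 leaf arrays, and whether a transcript with such a signal was present was not tested. Of the 48 leaf values of members, 35 were under 8, and 8 of the 16 probe sets were under 8 on every leaf array. The share of all probe sets under 8 was not counted, so nothing is read from these counts.

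Level signals still left room for differences between doses. The highest over lowest root signal ran between 1.148 and 1.998 with a median of 1.56, under 1.5 for 6 members and from 1.5 upward for 10. The highest root signal fell on the control array for 7 probe sets, on the 25 ppm array for 3 and on the 50 ppm array for 6, which was the case for 32.9%, 42.3% and 24.8% of the 1655 root-expressed probe sets in the same order. In dose order 4 went steadily upward (the _s_at set of AT4G33720, JAL31, AT2G21560 and AT2G41800) and 4 steadily downward (the _r_at set of AT4G33720, AT2G44380, AT4G15390 and AT5G46900), while 8 had their highest or lowest value at 25 ppm; with quantile normalization neither set of AT4G33720 nor AT2G41800 kept its steady order. Of the 1655 root-expressed probe sets 13.8% went steadily upward and 19.9% steadily downward, and nothing is read from the members' counts beside these shares, since the rule used the same arrays.

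At 50 ppm, AT2G47550 and AT2G41800 (2 of 16) were at least 1.5-fold higher than in control roots, where 11.1% of the 1655 root-expressed probe sets were. AT5G46900, AT4G15390, AT2G44380 and the _r_at set of AT4G33720 (4 of 16) were at least 1.5-fold lower, against 15% of the same probe sets. With quantile normalization AT2G41800, at a log2 change of 0.58, and the _r_at set of AT4G33720, at -0.54, fell short of 1.5-fold at 50 ppm, and AT5G46900 and AT2G44380 no longer met the rule. With arrays scaled by the median of bright probe sets the _r_at set fell short at -0.48, while JAL31 at 0.63 and AT2G21560 at 0.68 passed 1.5-fold, AT2G21560 no longer meeting the rule. At 25 ppm 0 members were at least 1.5-fold higher, against 8.1%, and AT1G78860, AT1G47480 and AT2G44010 (3 of 16) were at least 1.5-fold lower, against 10.5%. With quantile normalization AT2G41800 passed 1.5-fold higher at 25 ppm with a log2 change of 0.59 and AT5G46900 passed 1.5-fold lower with -0.75, and with bright-median scaling AT2G41800 passed at 0.63. Nothing is read from these shares, since the rule bounded the same changes. The 25 ppm and 50 ppm changes share 1 control array. The median log2 change of the members was -0.09 at 25 ppm, against 0.05 for all root-expressed probe sets, and -0.18 at 50 ppm, against -0.13.

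**Figure D2:**
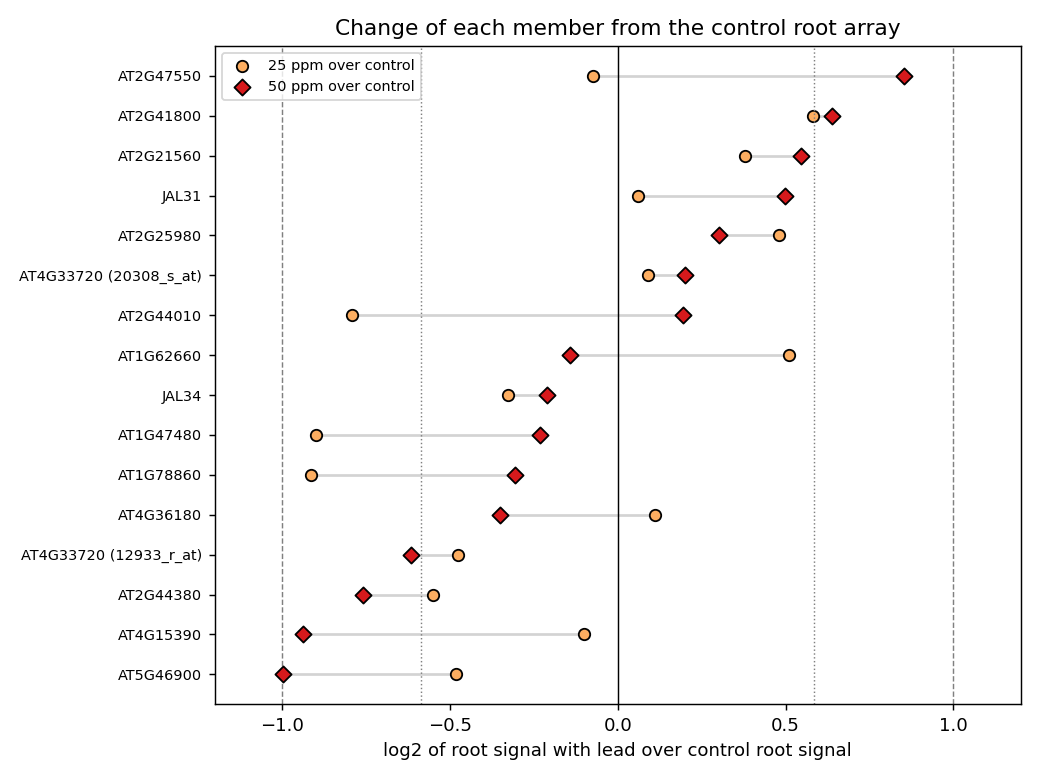
Log2 of the root signal with lead over the control root signal for each member probe set, at 25 ppm (circles) and 50 ppm (diamonds), joined by a grey line; dashed lines mark 2-fold, which the rule sets as the limit, and dotted lines 1.5-fold. AT2G47550 at 0.85 and AT5G46900 at -0.998 are the ends of the 50 ppm changes, and the probe sets of AT4G33720 lie on opposite sides of 0.

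Level signals were also counted among all root-only probe sets. Among 106 probe sets with root signals of at least 100 and leaf signals under 16, named or not, 59 (55.7%) had a ratio under 2. Among 1549 with the same root minimum and at least 16 on a leaf array, 1344 (86.8%) did, and 84.8% of all 1655. The difference between these shares was not tested. Of the 59, 33 had no gene name here, 1 named several genes, and 9 belonged to the left-out families, 7 of them peroxidases and the others BGLU21 and UGT71C1. The left-out families had ratios between 1.04 and 1.66 with a median of 1.39, while that of the members was 1.56. Beyond the limit, 26 named root-only probe sets had ratios from 2.01, for AT5G44380, up to 12.8, for the osmotin gene OSM34. Of these 26, 6 were peroxidases, a family left out of the members.

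**Figure D3:**
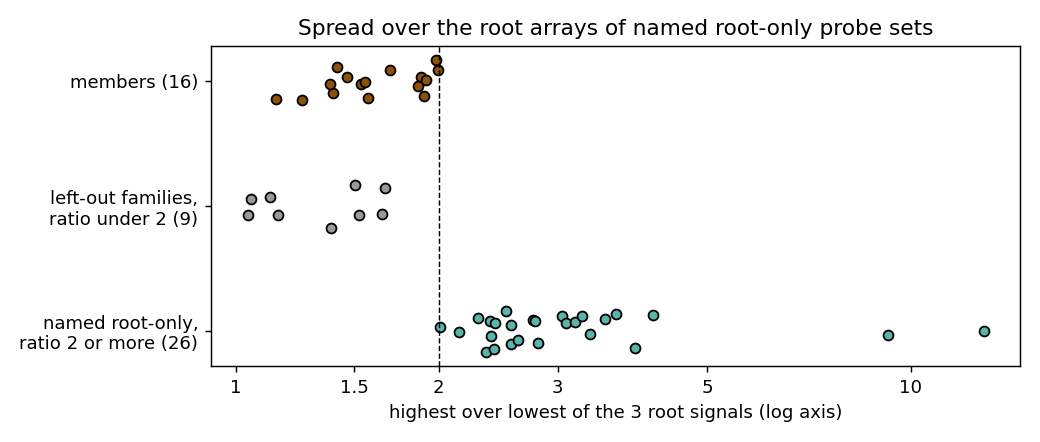
Highest over lowest of the 3 root signals (log axis) for the 16 members, the 9 root-only probe sets of the left-out families and the 26 named root-only probe sets above the limit. The 26 include 6 peroxidases. Points are spread vertically only to separate them. The dashed line is the limit of 2, and members crowd against it between 1.87 and 1.998.

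The limits cut through a continuous range. Just inside the ratio limit were AT5G46900 (1.998), AT2G44010 (1.98) and AT4G15390 (1.92), and just outside AT5G44380 (2.01), AT4G20860 (2.14) and AT2G04800 (2.29). By lowest root signal, AT2G47550 (103.4), AT1G47480 (107.2) and AT2G21560 (113.5) were just inside, and AT4G17280 (84.2), AT4G20460 (79.1) and AT2G38640 (79.0) just outside. By highest leaf signal, AT5G46900 (14.1), JAL34 (13.7), AT2G44380 (13.7) and AT2G21560 (13.7) were just inside, and TBL39 (17.9), AT4G34600 (24.4) and AT2G25260 (25.6) just outside.

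Relatives of the members are given for 3 families. Of 44 listed jacalin-related lectin loci 12 had a named probe set, 13 probe sets in all. Beside the 3 members, AT1G52050 and AT1G52070 were also root-only but not level, with root signals of 495.2, 565.3 and 160.4 for AT1G52050 and of 248.7, 440.6 and 157.0 for AT1G52070. Both were highest at 25 ppm and lowest at 50 ppm. AT1G52130 had root signals of 8.6 in control, 3.5 at 25 ppm and 260.9 at 50 ppm, and 1 probe set of AT1G60095 had 42.8, 46.4 and 188.0, both highest on the 50 ppm array. Relatives with a ratio under 2 but root signals under the minimum of 100 were AT1G60110, with 72.6, 48.4 and 45.2, AT1G60130, with 55.7, 41.9 and 56.1, and AT1G52100, with 13.3, 17.0 and 23.1. AT1G52120, JAL23 and the other probe set of AT1G60095 were also under 100 on every root array.

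Of 22 listed CAP-superfamily loci 10 had a named probe set. In the RefSeq table AT4G33720 stands between AT4G33710 and AT4G33730 on chromosome 4, with 0 protein-coding genes between it and either. AT4G33710 had root signals of 28.0 in control, 29.1 at 25 ppm and 433.2 at 50 ppm, and AT4G33730 had 60.1, 229.3 and 74.2. The neighbours reached their highest signal at different doses, AT4G33710 on a probe set that also ends in _s_at and may read several transcripts. The level signals of AT4G33720 were a condition of its choice and are not set against them. The root-only relatives AT4G25790, with root signals of 118.1, 299.8 and 117.1, and AT2G19970, with 132.7, 365.5 and 140.4, were highest at 25 ppm and almost equal in 50 ppm and control roots. AT5G26130 had 324.7, 539.9 and 1.8, so that its signal was near 0 on 1 of the 3 root arrays, that of 50 ppm.

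In the list of lipid transfer and proline-rich proteins, 6 of 11 loci had a named probe set, and AT5G46900 was its only member. AT4G12545 was root-only with root signals of 1056.7, 644.2 and 288.7, and AT1G62510 had 282.9, 258.5 and 31.6 in roots with leaf signals of 26.7, 28.0 and 27.8. AT2G45180, strong in leaves, had root signals of 1068.8, 545.0 and 190.3 on its _r_at set and 667.0, 307.4 and 100.6 on its _s_at set. The set of AT4G12545 ends in _i_at, and whether these sets read 1 gene alone was not tested. These signals and those of AT5G46900 each ran steadily downward, as did 19.9% of the 1655 root-expressed probe sets, and the list was made with earlier results known. AT4G12530 and AT4G00165, with root signals between 17.7 and 36.5, did not follow that order.

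**Figure D4:**
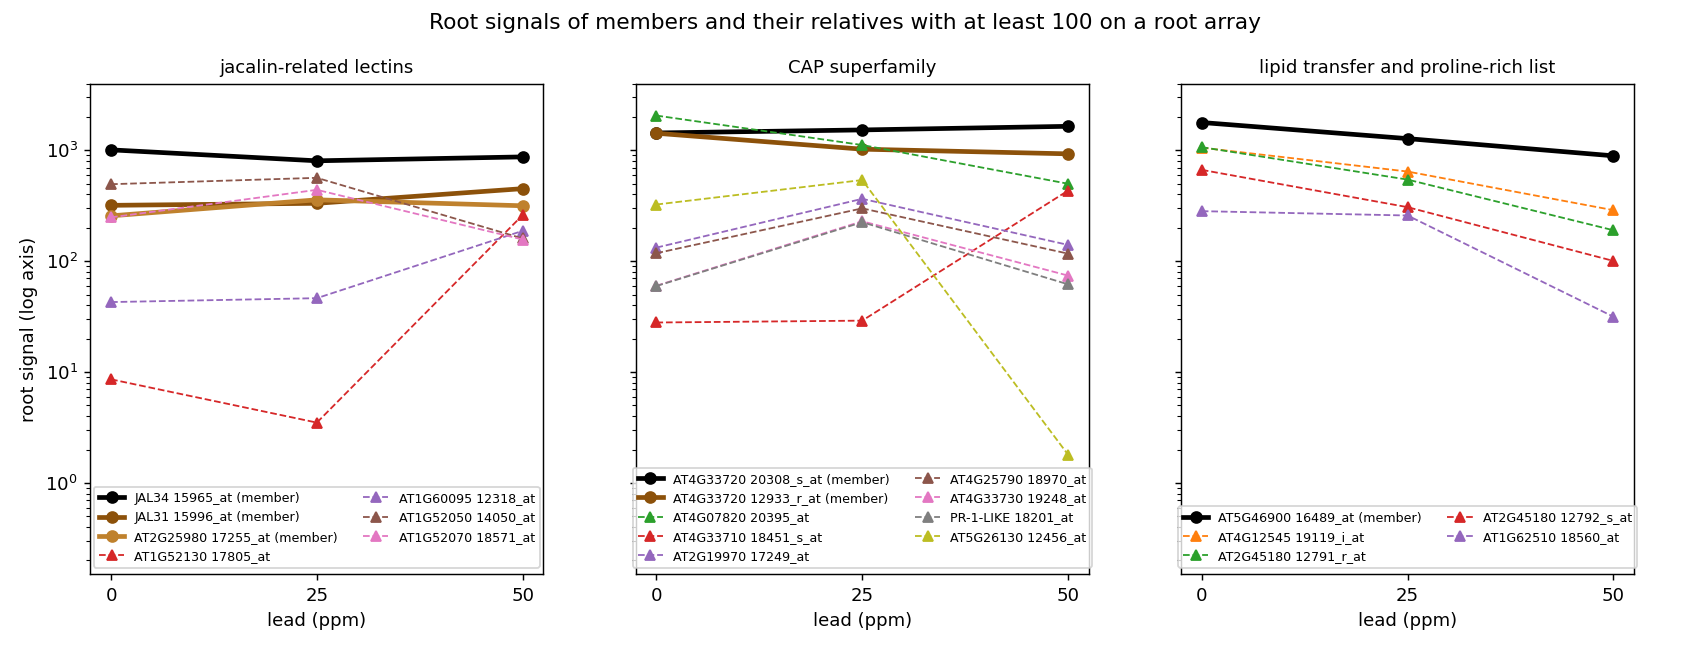
Root signals (log axis) against lead in ppm, 1 array per point, for members (thick lines, circles) and for relatives that reached 100 on at least 1 root array (thin dashed lines, triangles), in 3 families. Of the jacalin relatives drawn, AT1G52050 and AT1G52070 are highest at 25 ppm and AT1G52130 and AT1G60095 at 50 ppm. AT1G52130 and AT1G60095 reached 100 at 50 ppm alone, so the drawing limit fixed where they are highest. Most CAP relatives drawn are highest at 25 ppm, with AT4G33710 highest at 50 ppm and AT4G07820 in control. Of the 1655 root-expressed probe sets 42.3% were highest at 25 ppm. AT4G33730 and PR-1-LIKE reached 100 at 25 ppm alone and AT4G33710 at 50 ppm alone, so the drawing limit fixed where these are highest. Nothing is read from the number of relatives highest at a dose. In the lipid transfer list every line drawn runs downward with dose, both probe sets of AT2G45180 among them. AT4G12530 and AT4G00165 of the same list did not run downward and are not drawn, being under 100 on every root array. Of the 1655 root-expressed probe sets, which leave out AT1G62510, 19.9% ran steadily downward.

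By position, JAL31 and JAL34 lie close together on chromosome 3 with 3 protein-coding genes between them in the RefSeq table, JAL33 among them, and 0 of these has a named probe set here. No other pair of member genes had fewer than 38 genes between them. Chromosome 2 held 6 of the 15 member genes (40%), where it held 37.2% of all loci named on the array and 15.7% of the protein-coding genes in the table. The gene length of the members had a median of 1726 bp against 2270 bp for all named loci.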

How the data were processed

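Biotin-labelled cRNA of 6 samples was hybridised to Affymetrix Arabidopsis arrays with 8297 probe sets, per the labels' protocols. The authors deposited 1 linear signal intensity per probe set and array; the sources used here name no software, and the 2% trimmed means lay between 100.1 and 100.2. All 6 value columns were used and 0 left out. Signals were used as deposited, after 50 control probe sets were set aside. Of the 8247 others, 3784 named 1 gene matched in the RefSeq table of assembly TAIR10.1, 70 named several, 10 had no match and 4383 are unnamed here. Peroxidases were left out by a list of loci from general knowledge, the other families by symbol and synonym.

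The members, families and lists were chosen with earlier results of these data known, and the CAP and jacalin lists after values were seen. Every member is named with its signals, as are the 3 genes on each side of each threshold and relatives from the lists. All the contrasts the design allows were used by the rule, so none was tested and limma was not run. The code of the rule was checked on simulated data with 200 planted members, and 200 were found. Planted signals lay inside every limit and all other leaf signals above the leaf limit, so this outcome was fixed. The check says nothing about the choice of limits. Of the other lists, aquaporins, terpene synthases and triterpene clusters had 0 named probe sets, endodermis 1 and suberin and lignin 4, with 0 members among them. Promoter motifs and protein features were planned but not analysed here. The number of arrays, 1 per group, limits the precision. Calculations used Python 3.11.15, pandas 2.3.3, numpy 2.4.6 and scipy 1.17.1.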

Additional observations from a re-analysis of the deposited data

How the results depend on the processing

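No paired analysis was possible because the groups share only replicate number 1; roots and leaves can be matched by dose, but the members were chosen on that contrast and it was not tested. The rule found 16 probe sets. It found 36 with a root minimum of 50, 10 with 200, 8 with a leaf limit of 8, 6 with a ratio limit of 1.5, 27 with a limit of 3 and 25 with the left-out families kept. Leaving out 1 array gave between 16 and 31, with 26 without the control, 31 without the 25 ppm and 28 without the 50 ppm root array, and 16 without any single leaf array. Scaling each array by the median of its bright probe sets (at least 100 on all 6 arrays) gave 13, losing AT2G21560, AT1G47480, AT2G47550 and AT2G44010, and quantile normalization gave 15, losing AT2G44380 and AT5G46900; in both AT5G44380 was added. The median log2 change at 25 ppm (-0.09) was -0.21 with a root minimum of 200, and it turned to 0.030 with a minimum of 50, 0.075 with a leaf limit of 8 and 0.10 with a ratio limit of 1.5. That at 50 ppm (-0.18) was -0.053 with quantile normalization, and turned to 0.096, 0.029 and 0.25 with the same 3 changes of limit, which change the probe sets counted. Without 1 array these medians ran between -0.088 and -0.027 at 25 ppm and between -0.23 and -0.18 at 50 ppm. The count at least 1.5-fold higher at 50 ppm (2) was 1 with quantile normalization, 5 with a root minimum of 50, 0 with 200, 1 with a leaf limit of 8 and 0 with a ratio limit of 1.5, and between 2 and 3 without 1 array. The count lower (4) was 1 with quantile normalization, 2 with a leaf limit of 8, 0 and 10 with ratio limits of 1.5 and 3, 7 with the left-out families and between 4 and 9 without 1 array. Both counts at a ratio limit of 1.5 had to be 0, because that limit leaves out any change of 1.5-fold. A ratio limit of 3 admits larger changes, so nothing is read from the counts under these 2 limits. One value per gene, an alternative chosen after seeing the data, gave 15 genes with 2 higher and 3 lower. Quantile normalization turned the sign of the _s_at set of AT4G33720 at 25 ppm to -0.016.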

Other observations

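The 34 probe sets that met the signal limits without naming exactly 1 gene had a median ratio of highest over lowest root signal of 1.52, between 1.07 and 1.94. The highest root signal fell on the control array for 11 of them, on the 25 ppm array for 7 and on the 50 ppm array for 16. Of the 1655 root-expressed probe sets this was the case for 32.9%, 42.3% and 24.8%, in the same order. The median log2 change of the 34 from control roots was -0.22 at 25 ppm and -0.01 at 50 ppm. For all root-expressed probe sets it was 0.05 and -0.13. Nothing is read from these values, since the signal limits used the same arrays.

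AT4G07820, of the CAP superfamily, was named by several probe sets that disagreed in level. One had root signals of 2059.8 in control, 1117.5 at 25 ppm and 500.0 at 50 ppm, and leaf signals of 14.1, 25.4 and 4.8. The other 3 had root signals between 0.3 and 4.0. Which of them reads the gene was not tested.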
